A study of Mus musculus with 12 samples.

Results

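Ackr4-positive ceiling lymphatic endothelial cells were followed in 6 single-cell RNA libraries of mouse lymph node endothelium, and 2311 such cells were found among 5435 lymphatic cells, 50017 cells of the endothelial libraries and 95358 cells in all 12 libraries. A cell was kept with at least 1000 UMIs (unique molecular identifiers, 1 per captured RNA molecule), at least 500 genes and at most 10% of UMIs from mitochondrial genes. It was counted as lymphatic with at least 1 UMI of Prox1 or Mmrn1, at least 1 of Pecam1 or Cdh5, and none of Ptprc, Cd79a or Cd3e. A ceiling cell also had at least 1 UMI of Ackr4, and none of Madcam1, Marco or Ptx3. The cells were thus selected on measured UMIs of 11 genes, and the values of those genes are descriptions only. The Vehicle Cre-negative library held 520 ceiling cells and the Vehicle Cre-positive library 306. The day 3 libraries held 205 and 281 and the day 7 libraries 461 and 538, Cre-negative first.

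Lymph arrives from the tissue in the subcapsular sinus, a space between a pair of lymphatic layers. The ceiling layer lines the capsule, and the floor layer faces the lymph node tissue. Ackr4 is an atypical chemokine receptor that binds CCL19, CCL21 and CCL25 and takes them into the cell without G protein signalling. On the ceiling it removes chemokine from the sinus, which keeps a CCL21 gradient pointing into the node for arriving dendritic cells. Floor cells are known for Madcam1, and the lymphatic cells of the medullary and cortical sinuses for Marco, Ptx3, Mrc1 and Lyve1.

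The mice were C57BL/6, 7 to 10 weeks old, and carried ATG12 fl/fl with the CDH5 CreER transgene either positive or negative. ATG12 is a ubiquitin-like protein needed to build autophagosomes, and the Cdh5 promoter drives the tamoxifen-dependent Cre recombinase in blood and lymphatic endothelium alike. All groups, controls included, had tamoxifen 5 times, so Cre-negative mice were floxed and tamoxifen-treated but lacked the recombinase. Abdominal skin received 50 ul of 4% oxazolone, a contact sensitizer, in acetone and olive oil, and nodes were taken 3 or 7 days later. Vehicle mice received acetone and olive oil alone, and the labels give no time for them. Each combination of genotype and treatment had 1 library, and the number of mice in it was not given in the sources used here. Within 1 time point no test was possible, and each tested difference is an average over time points or over genotypes. No p-value measures a spread between replicate libraries, since there were none. In the gate comparisons, with library as a term, p-values rest on how the gate difference varied over the 6 libraries. In the genotype and oxazolone comparisons they rest on departures from additive effects of genotype and treatment. Both draw on a spread shared across genes.

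Median depth of a ceiling cell was 6673 to 8037 UMIs over the 6 libraries. Summed over its ceiling cells, a library gave 1767126 to 4412687 UMIs, and levels are given as CPM, counts per 1000000 UMIs of that sum. No ceiling cell barcode was shared by any of the 15 pairs of endothelial libraries. The libraries differed in sex. No ceiling cell of the Vehicle Cre-positive library had an Xist UMI, and 82.7% had a Y-linked UMI, whereas in the other 5 libraries 35.2 to 77.6% had Xist and 20.5 to 44.1% a Y-linked UMI. Sex therefore moved with the library, and its part in the results was not tested beyond a repeat on cells with a Y-linked UMI. Free RNA, measured in barcodes of 10 to 100 UMIs, is given beside some genes. It could add to genes without such a value too.

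The label was checked with genes the gate did not use. Cav1 (chr6:17306335-17341452, GRCm38), the main coat protein of caveolae, had 464 and 464 CPM in vehicle, 426 and 427 at day 3 and 479.6 and 365 at day 7 in ceiling cells, the Cre-negative library first in each pair. In Madcam1-positive lymphatic cells it had 46.1 to 75.1 CPM, so the groups did not overlap, as for 13.8% of all genes in this direction. Lymphatic cells with no UMI of Ackr4, Madcam1, Marco or Ptx3 had 306 to 536 CPM of Cav1, which spans the ceiling range. Ceiling and Madcam1-positive cells did not overlap either for Cd36, a fatty acid and thrombospondin receptor, with 1113 to 1325 CPM against 36.7 to 101. Anxa2, Btnl9 and Foxc2, a transcription factor of collecting vessels and valves, were also called higher. This made 5 of 5 label genes higher than in each of the other 2 lymphatic gates. Of all genes 21.4% were called higher and 23% lower than in Madcam1-positive cells. Against Marco- or Ptx3-positive cells 13.4% were called higher and 14.1% lower. The label genes were chosen with earlier results of these data known. Prox1, a gate gene and the lymphatic master regulator, was at 587 to 923 CPM. Of 12 pan-lymphatic markers outside the gate 5 were called higher and 2 lower than in Madcam1-positive cells. Against Marco- or Ptx3-positive cells 3 were higher and 6 lower (median -0.75). Of 7 medullary and cortical markers tested 4 were higher and 3 lower than in the former, and 0 higher and 6 lower than in the latter. The 10 in all summed to 1517.4 to 2687.5 CPM, against 601.81 to 755.93 and 3932.1 to 5377.1 in those gates. Collagen genes of fibroblasts (Col1a1, Col1a2, Col3a1), Lum and Pdgfra stayed under 3 UMIs in at least 4 of 6 libraries, as did Ms4a1, C1qa and Nkg7 of immune cells. The 10 fibroblast and mural markers summed to 108.8 to 181.3 CPM, most of it Dcn at 101 to 155 CPM (19.1 to 48.5 in free RNA). The 7 immune markers outside the gate summed to 559.8 to 840.8 CPM, most of it Cst3, a cystatin made by many cell types, at 516 to 734 CPM, with Cd74 at 34.5 to 96.9. Summed over 12 blood endothelial markers, ceiling cells had 1649.8 to 2149.8 CPM and Madcam1-positive cells 1046.6 to 1496.1. Of these 12 markers 8 were called higher and 1 lower than in Madcam1-positive cells (median 0.82), and 1 higher and 1 lower than in Marco- or Ptx3-positive cells, and the part of blood endothelial RNA in the results was not tested. Flt1, a defining blood endothelial receptor, was at 69.04 to 148 CPM, below its 294 to 482 CPM in free RNA. The 8 high endothelial venule markers moved with the comparison to Madcam1-positive cells. They summed to 355.8 to 4786.2 CPM in ceiling cells, 9078.9 to 16655 in Madcam1-positive cells and 369.92 to 909.5 in Marco- or Ptx3-positive cells. Most of the Madcam1-positive sum was Glycam1, a mucin of these venules, at 8456 to 16015 CPM against 1338 to 16480.0 in free RNA, and at least 93.4% of Madcam1-positive cells in each library and 9.67 to 48.4% of ceiling cells had a UMI of it. With every cell thinned to 1000 UMIs, 82.6 to 91.3% of Madcam1-positive cells and 2.60 to 14.1% of ceiling cells had a Glycam1 UMI. Of the 7 venule markers tested 1 was called higher and 3 lower in ceiling cells than in Madcam1-positive cells. Of the 8 floor lymphatic markers tested 1 was called higher and 7 lower in the same comparison. Over all genes 21.4% were higher and 23% lower there. Whether the Glycam1 RNA was made by the Madcam1-positive cells themselves or came from venules was not tested, nor was the part of venule RNA in that comparison.

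Ackr4 itself (chr9:104084157-104126933, GRCm38) was at 1255 and 1014 CPM in vehicle, 977 and 971 at day 3 and 1151 and 1110.4 at day 7 in the cells it selected, against 49.9 to 232 in free RNA. A ceiling cell held a median of 5 to 8 Ackr4 UMIs, depending on the library. Between 8.74 and 20.6% of the members in a library passed on exactly 1 Ackr4 UMI, and 70.8 to 82.0% had 3 or more. Cells with a Cd79a UMI outside the lymphatic gate, called B cells here, had an Ackr4 UMI in 1.35 to 4.64% in all libraries but 1 and in 5.79% there. They can include doublets and endothelial cells with a stray Cd79a UMI, so they are no clean measure of background. Of them 5.22% had a Prox1 UMI in the day 7 Cre-positive library and 26.1% a Flt1 UMI in the day 3 Cre-positive one. After every cell was thinned to 1000 UMIs, 56.9 to 68.7% of members and 0.31 to 2.81% of B cells had one. Cells just inside the threshold, with 1 UMI, had a median over libraries of 605 CPM of Cd36, and those with 3 or more had 1278. They had 286 CPM of Flt1 and 344 of Lyve1, against 85.3 and 77.0 in cells with 3 or more, so members at the threshold differed from the rest. Cells just outside, with no Ackr4 UMI but the other gates met, had 515 CPM of Cd36, 647 of Flt1 and 282 of Lyve1. They had 377 CPM of Anxa2, against 696 in cells with 3 or more. Cav1 did not set them apart, at 306 to 536 CPM (median 395) against 369 to 499 (median 467) in cells with 3 or more.

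Ceiling cells made up between 37.5 and 51.8% of the lymphatic cells, and the difference between genotypes was smaller than the spread of the libraries. It was 51.8% (exact 95% interval 48.7 to 55.0) in the Vehicle Cre-negative library and 37.5% (34.2 to 41.0) in the Vehicle Cre-positive one. At day 3 it was 37.7% (33.6 to 41.9) and 37.6% (34.1 to 41.1), and at day 7 37.8% (35.0 to 40.5) and 48.7% (45.7 to 51.7). The difference, Cre-positive minus Cre-negative, was -14.3 percentage points in vehicle, -0.117 at day 3 and 10.98 at day 7. Averaged, Cre-negative libraries had 42.4% ± 8.15 and Cre-positive ones 41.3% ± 6.45 (SD, n = 3 each), with a two-sided exact permutation p of 0.5, where 0.1 is the smallest possible. The permutation exchanged genotype labels over all libraries and did not keep the treatment pairs. After thinning, which removes the effect of depth on a gate of 1 UMI, the shares were 44.4 and 26.5% in vehicle, 22.9 and 27.5% at day 3 and 30.1 and 38.3% at day 7. Intervals cover counting error only.

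**Figure D1:**
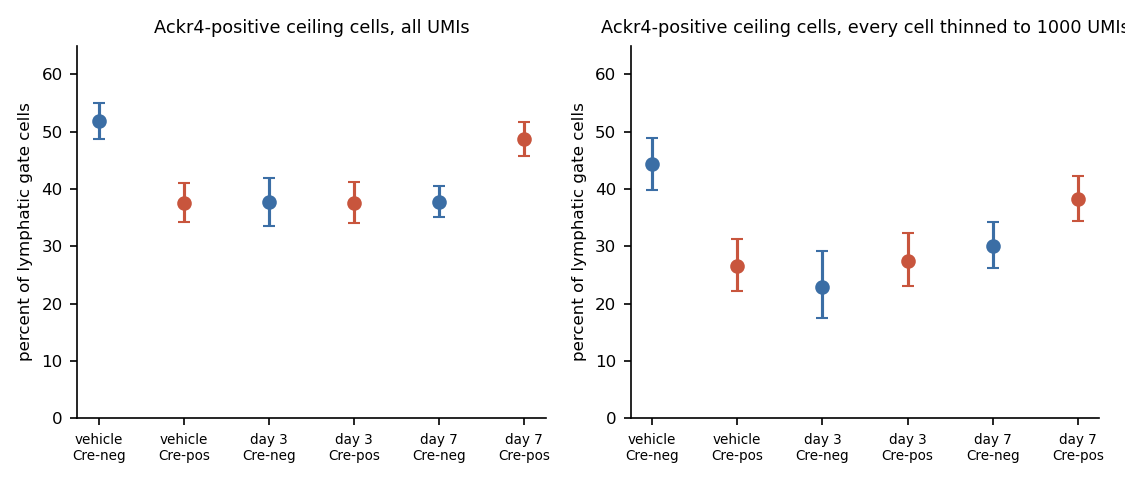
Share of Ackr4-positive ceiling cells among lymphatic gate cells in percent, 1 point per library with exact 95% binomial intervals; blue is Cre-negative and red Cre-positive. The left panel uses all UMIs and the right panel cells thinned to 1000 UMIs; the Vehicle Cre-negative library is the highest in both, at 51.8 and 44.4%.

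Compared with the Madcam1-positive gate (876 cells, called floor cells here for that marker), ceiling cells had more Gdf10, Dkk2 and Edn1 and less Coch, Ccl20, Mmp9, S1pr3 and Lpar1, and most NF-kB and inflammation genes tested were lower. Of 10260 genes tested over 6 libraries with library as a term, 2199 (21.4%) were called higher and 2359 (23%) lower in ceiling cells. The comparisons with the other 2 gates share the ceiling sums. Gdf10, a BMP-family ligand, had 359.6 and 383 CPM in vehicle, 324 and 306 at day 3 and 418 and 328 at day 7 in ceiling cells and 0 to 5.37 in Madcam1-positive cells (log2 fold change 7.31, SE 0.28, adjusted p = 2.3e-14). Every ceiling library lay above every floor library, as for 13.8% of all genes tested. Dkk2, a secreted Wnt modulator, stood at 248 to 558 CPM against 0 to 6.13 (log2 fold change 7.42, SE 0.37, adjusted p = 1.1e-12). Edn1, the vasoconstrictor peptide endothelin 1, stood at 122 to 256 against 0.763 to 9.80 CPM (log2 fold change 5.99). The chemokine gene Ccl7 was higher too, at 30.5 to 78.2 against 0 to 3.95 CPM. The other genes of the largest increases were Smim5, Thy1, Mfap2, Pkhd1l1, Car8 and Ctnnal1, with log2 fold changes of 5.56 to 7.61.

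In the opposite direction, Coch, an extracellular matrix protein, had 0.405 to 2.70 (median 0.736) CPM in ceiling cells and 736 to 1217 (median 979) in floor cells (log2 fold change -9.53, SE 0.26, adjusted p = 4.8e-16). Ccl20, the ligand of CCR6, had 0.540 and 0 CPM in vehicle, 0 and 85.99 at day 3 and 2.66 and 3.63 at day 7 in ceiling cells against 383 to 3101 in floor cells. The day 3 Cre-positive ceiling library stood apart from the other 5, and the gates did not overlap, as for 9.88% of all genes in this direction. Mmp9, a matrix-degrading protease, was at 0 to 4.05 against 302 to 468 CPM. The receptors S1pr3 for sphingosine 1-phosphate and Lpar1 for lysophosphatidic acid were at 0 to 0.591 and 0 to 1.13 CPM in ceiling cells and 33.2 to 96.7 and 102 to 214 in floor cells. Brinp1, Fgf23, Mme, Tmem132c and Cntn1 completed the 10 largest decreases. Genes at or near 0 UMIs in one gate have fitted folds that depend on the prior count, so their levels are the firmer description.

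Whole groups of genes were split between the layers. Of 11 caveolae and diaphragm genes tested, 8 were called higher and 2 lower in ceiling cells (median log2 fold change 1.79, against 0.0178 over all genes). Over all genes tested against floor cells 21.4% were called higher and 23% lower. Cavin2, a caveolar coat protein, was at 753 to 937 against 81.3 to 113 CPM, and Ehd2, which holds caveolae at the membrane, at 210.3 to 248 against 12.2 to 22.9. Emp2 went the other way (3.64 to 10.1 against 40.6 to 74.4 CPM). Matrix genes were called higher for 11 and lower for 4 of 18, with Ltbp4 (3.62), which anchors latent TGF-beta, and the elastic-fibre protein Fbln5 (4.65) among the higher. Vessel growth and flow-response genes were called higher for 13 and lower for 4 of 19. The higher ones included Angpt2 (3.14), a ligand of the receptor Tek (2.25), and the shear-stress factor Klf2 (2.17), whereas the ligand genes Vegfa (-2.92) and Vegfc (-2.42) were lower. Of 15 BMP and TGF-beta genes 9 were higher and 5 lower, with Bmp4 at 5.14 and Bmp2 at -5.75.

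Of 14 junction genes 9 were called higher and 2 lower in ceiling cells (median 0.63). Cldn5, the main endothelial claudin, was at 1139.7 to 1609.6 CPM against 112 to 371 in floor cells, and Jup, plakoglobin, at 128 to 183 against 14.1 to 26.1. Jam3 and Cldn11 were the lower ones. Spns2, the exporter of sphingosine 1-phosphate, was at 188 to 259 against 19.8 to 38.4 CPM, while Sgpl1, the lyase that destroys it, was at 11.3 to 19.04 against 38.4 to 56.9. Of the 11 genes of sphingosine 1-phosphate and lysophosphatidic acid handling 3 were called higher and 4 lower, near the shares of 21.4 and 23% over all genes (median -0.11).

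Inflammatory genes lay on the floor side. Among 24 NF-kB and acute inflammation genes 21 were called lower and 1, Il6st, higher (median -1.01), where 23% of all genes were lower and 21.4% higher. Of 26 immediate-early and dissociation-response genes 14 were lower and 6 higher here (median -0.47), and the part of dissociation in these values was not tested. Ptgs2, the inducible cyclooxygenase, had no UMI in any ceiling library, which allows at most 0.680 to 1.70 CPM by library (3 counts), and 12.2 to 75.1 CPM in floor cells. Birc3, an NF-kB target that limits cell death, was lower too (log2 fold change -2.40). For antigen presentation 13 of 18 were lower and none higher (median -0.52), with B2m, the light chain of MHC class I, at -0.53. Of 14 chemokine genes 5 were higher and 5 lower, and all genes too were divided about evenly. Ackr3, an atypical receptor that scavenges CXCL12, was higher at 223 and 206 CPM in vehicle, 209 and 210.2 at day 3 and 185 and 275 at day 7, against 2.28 to 11.1. Ccl19, an Ackr4 ligand, was lower at 0 to 0.680 against 22.9 to 42.1 CPM.

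Against the Marco- or Ptx3-positive gate, which held 340 cells, ceiling cells had more of several caveolae genes and of Ackr3 and Bgn, and less Mrc1 and Lyve1. Of the 10260 genes, 1371 (13.4%) were called higher and 1449 (14.1%) lower (27.5% either way). Of the caveolae genes 6 of 11 were called higher and none lower (median 0.59), and Cavin2 was at 428 to 715 CPM in that gate. Ackr3 was at 2.12 to 58.8 CPM there (log2 fold change 3.67, SE 0.29, adjusted p = 7.0e-09). Matrix genes divided, with 6 called higher and 5 lower of 18 (median 0.12). Bgn, a small matrix proteoglycan, had 248 to 289 CPM in ceiling cells against 8.47 to 32.03, with no overlap, as for 3.25% of all genes. Pglyrp1, which binds bacterial peptidoglycan, had 177 to 325 against 14.8 to 39.1 CPM, with 96.5 to 253 CPM in free RNA. Myof, Car8, Pdlim3, Dkk2, Tmem158, Cryab and Klrb1f made up the rest of the 10 largest increases. Cryab was far higher in the day 3 Cre-negative ceiling library than in the other 5, and without that library its log2 fold change against this gate was 2.37 (adjusted p = 0.003), in place of 3.84 with it.

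Mrc1, the mannose receptor, was at 7.29 and 16.2 CPM in vehicle, 1.13 and 17.3 at day 3 and 13.9 and 14.5 at day 7 in ceiling cells and 259.8 to 519 in the Marco- or Ptx3-positive gate (log2 fold change -4.81, SE 0.22, adjusted p = 3.7e-12). The gates did not overlap, as for 6.45% of all genes in this direction. Lyve1, the hyaluronan receptor used as a general lymphatic marker, was at 72.1 and 127 CPM in vehicle, 102 and 135 at day 3 and 110.0 and 178 at day 7, against 248 to 369.8 in floor cells and 1280.3 to 2091 in the Marco- or Ptx3-positive gate. It was called lower in ceiling cells than in each. Pcdh15, a cadherin-family adhesion gene, had 0.910 to 7.98 CPM in ceiling cells and 216 to 961 in the Marco- or Ptx3-positive gate. Apba2, Hpgd, Lsamp, Adarb2, B3galt1, Hs3st3a1, Mt1 and Astn1 were the other genes of the 10 largest decreases. Stab2, a hyaluronan scavenger receptor, was high in both, at 1014 to 2009.7 and 1363 to 2207 CPM, and low in floor cells at 48.9 to 112. Of 26 immediate-early and dissociation-response genes 17 were called higher in ceiling cells than in this gate and none lower (median 0.86), where 13.4% of all genes were higher and 14.1% lower, Fos at 1.28 and Nr4a1 at 1.52. The same list was called higher for 6 and lower for 14 against the floor gate, where 21.4% of all genes were higher and 23% lower. Ccl21a was at 46.7 and 81.5 CPM in vehicle, 432 and 60.5 at day 3 and 123 and 53.7 at day 7 in ceiling cells and was called in neither comparison (adjusted p = 0.43 and 0.22). Free RNA held 165 to 1743 CPM of it, and its near-identical gene copies make the count uncertain.

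**Figure D2:**
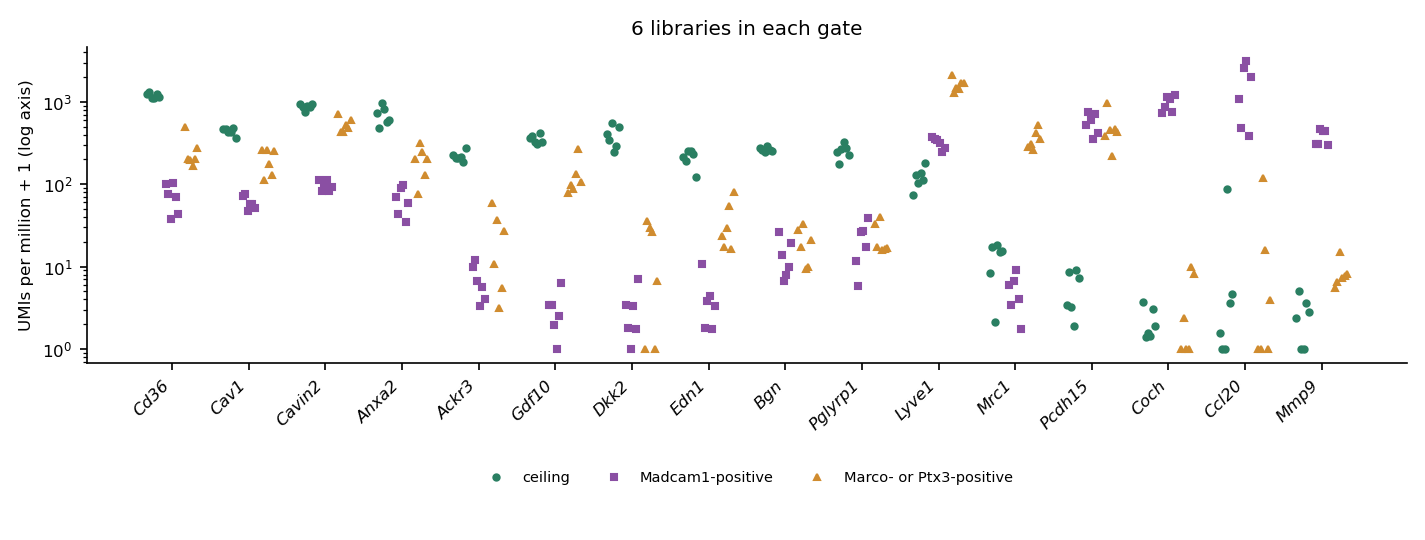
UMIs per 1000000 plus 1 on a log axis for 16 genes in ceiling cells (circles), Madcam1-positive cells (squares) and Marco- or Ptx3-positive cells (triangles), 1 point per library. Gdf10, Ackr3 and Bgn form a high band of 6 ceiling points, and Coch, Ccl20 and Mmp9 a high band of 6 Madcam1-positive points.

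Atg12, the floxed gene, was not lower in the Cre-positive ceiling cells. It had 59.1 and 83.9 CPM in vehicle, 49.2 and 75.1 at day 3 and 54.99 and 59.6 at day 7, higher in the Cre-positive library of each pair (log2 fold change 0.45, SE 0.17, adjusted p = 0.999). Counts from the 3' end do not show whether the floxed part of the transcript was lost, so this is no check of deletion.

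Between genotypes, 5 of 11401 genes (0.0439%) were called, all higher in the Cre-positive ceiling cells, and 3 of them are targets of p53, the DNA damage and stress factor. The model averaged over treatments had 2 residual degrees of freedom. Cdkn1a (chr17:29090976-29100727, GRCm38), the cell cycle inhibitor p21, had 52.1 and 92.4 CPM in vehicle, 74.1 and 163 at day 3 and 64.8 and 136 at day 7, Cre-negative first. The Cre-positive library was higher at each time, and the lowest of the 3 Cre-positive libraries was above the highest Cre-negative one (log2 fold change 1.06, SE 0.16, adjusted p = 0.016). Gdf15 (chr8:70629393-70632456), a stress-induced cytokine, had 9.99 and 33.2 CPM in vehicle, 15.8 and 63.7 at day 3 and 15.7 and 31.3 at day 7 (log2 fold change 1.59, SE 0.22, adjusted p = 0.0082). Eda2r (chrX:97333840-97377216), a TNF-family receptor gene on the X chromosome, had 7.02 and 23.5 CPM in vehicle, 9.05 and 34.6 at day 3 and 12.4 and 33.3 at day 7 (log2 fold change 1.70, SE 0.22, adjusted p = 0.0052). The genotypes did not overlap in any of the 3 genes, as for 2.5% of all genes in this direction and 4.97% in the other.

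The other 2 called genes were Cdo1 and Cxcl10. Cdo1, which encodes cysteine dioxygenase, the enzyme that starts cysteine breakdown, had 4.86 and 25.1 CPM in vehicle, 4.53 and 17.3 at day 3 and 5.91 and 19.7 at day 7 (log2 fold change 2.05, SE 0.27, adjusted p = 0.0052). In GENCODE it is the next gene downstream of Atg12 on the same strand, with 1748 bases between them, and Ap3s1, 295 bases away on the other side and opposite strand, had a log2 fold change of 0.03. Cdo1 was also higher in the Cre-positive library of each pair in Madcam1-positive cells (1.63 and 18.97 CPM in vehicle, 8.47 and 12.5 at day 3 and 3.43 and 17.6 at day 7). The same held in Marco- or Ptx3-positive cells (4.53 and 30.3 CPM in vehicle, 3.56 and 21.2 at day 3 and 4.44 and 14.4 at day 7) and in free RNA (1.64 and 16.3 CPM in vehicle, 3.71 and 10.7 at day 3 and 4.58 and 18.05 at day 7). Cxcl10, an interferon-induced chemokine, had 27.00 and 85.5 CPM in vehicle, 67.9 and 91.00 at day 3 and 30.7 and 104 at day 7 (log2 fold change 1.34, SE 0.22, adjusted p = 0.027), while free RNA held 54.1 to 134. Eda2r and Cdo1 had means under 20 CPM and were named after their values were seen.

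The 5 calls were lost when a day 3 library was left out. The remaining day 3 library is then fitted by its own term, so both such repeats rest on the vehicle and day 7 pairs. Any repeat without 1 library leaves 1 residual degree of freedom, and the part of this in the lost calls was not tested. Without either the Cre-negative or the Cre-positive day 3 library no gene was called. The log2 fold changes were then 0.97 for Cdkn1a, 1.34 and 1.35 for Gdf15, 1.57 for Eda2r, 2.05 and 2.06 for Cdo1 (adjusted p = 0.98 for these 4) and 1.73 for Cxcl10 (adjusted p = 0.41 and 0.44). Without any 1 of the other 4 libraries 52 to 74 genes were called higher and 20 or 21 lower. DESeq2 called 7 higher. After thinning to 1000 UMIs per cell, which left 6291 genes to test, 0 were called. In cells with a Y-linked UMI, a repeat chosen after seeing the data, 2 were called. No difference between the genotype effect in ceiling cells and in the 2831 other lymphatic cells passed: edgeR's interaction term called 0 of 11756 genes, DESeq2 called 0, and 434 had an unadjusted p below 0.05. That count of 0 rose when a day 7 library was left out, to 45 higher and 13 lower without the Cre-negative one and 29 and 8 without the Cre-positive one, and to 1 and 2 without either vehicle library.

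**Figure D3:**
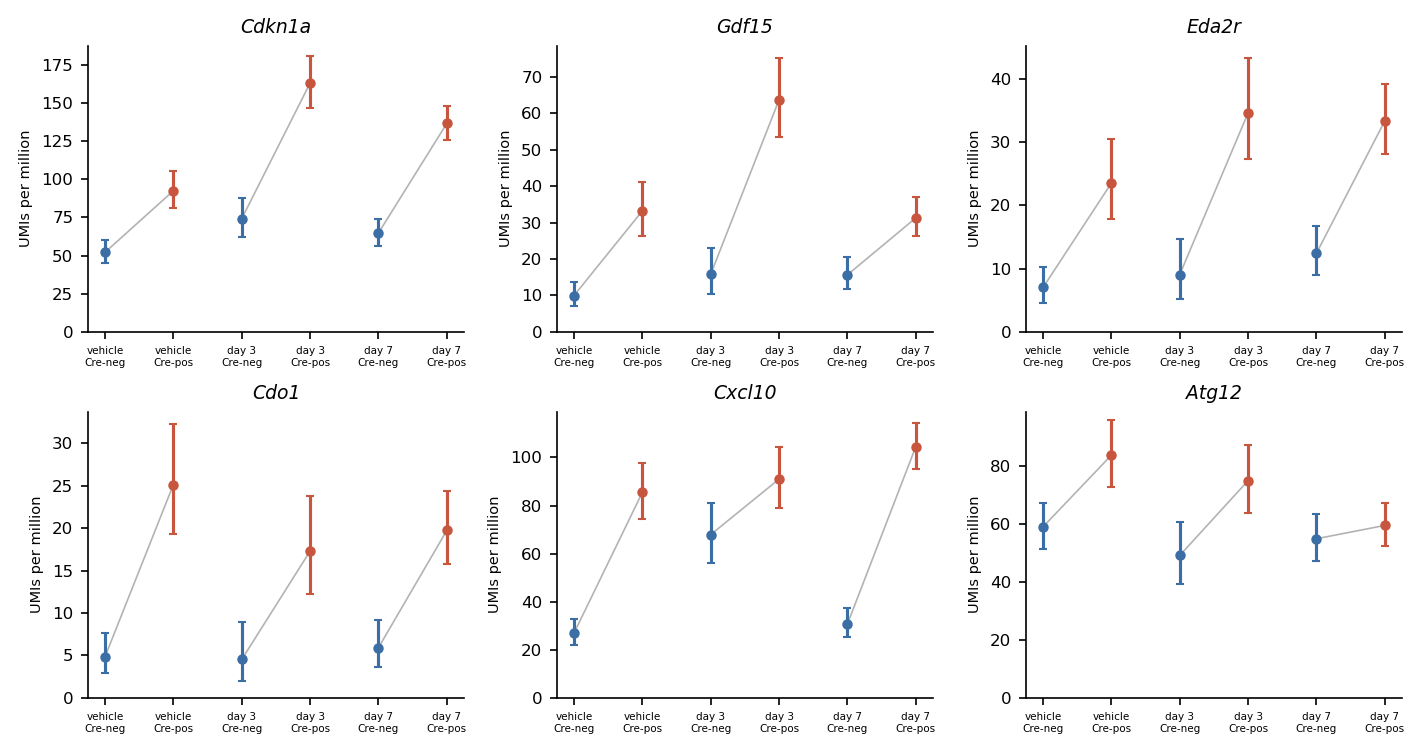
UMIs per 1000000 of ceiling cells for the 5 genes called between genotypes and for Atg12, 1 point per library with exact 95% Poisson counting intervals; blue is Cre-negative, red Cre-positive and grey lines join libraries of a treatment. In the 5 called genes each red point lies above its blue partner.

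Among 17 p53 targets tested, 3 were called higher, where 0.0439% of all genes were, and 16 had a positive sign. Their median log2 fold change was 0.70 against 0.00116 over all genes. This list and the other gene lists were chosen with earlier results of these data known, so such counts are descriptions only. The 3 calls were those of Cdkn1a, Gdf15 and Eda2r, lost without either day 3 library (adjusted p = 0.98). Phlda3, which restrains AKT, had 46.2 and 61.2 CPM in vehicle, 74.7 and 138 at day 3 and 38.4 and 77.7 at day 7 and did not pass (adjusted p = 0.13), and Mdm2, the p53 ubiquitin ligase, stood at 0.42 (adjusted p = 0.999). Of 29 autophagy genes none was called (median 0.05). Immediate-early genes had positive signs in 25 of 26 (median 0.48) and interferon-stimulated genes in 31 of 33 (median 0.26), with none called. Unfolded protein response genes had negative signs in 22 of 25 (median -0.31). The ER chaperone Hspa5 was at 391 and 289.8 CPM in vehicle, 591 and 321 at day 3 and 433 and 269.7 at day 7, lower in the Cre-positive library of each pair, yet not called (adjusted p = 0.62). The 24 cell cycle genes all had negative signs (median -0.25) and none was called.

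At day 3 after oxazolone, 56 of 11401 genes (0.491%) were called against vehicle, 32 (0.281%) higher and 24 (0.211%) lower. Proliferation genes were among the higher ones. Top2a (chr11:98992943-99024189, GRCm38), which untangles DNA before mitosis, had 37.5 and 29.6 CPM in vehicle, 81.5 and 59.6 at day 3 and 38.7 and 33.3 at day 7 (log2 fold change 1.11, SE 0.20, adjusted p = 0.024). Mki67 (chr7:135689784-135716361), the gene of the Ki-67 proliferation antigen, had 24.6 and 21.1 CPM in vehicle, 52.1 and 41.9 at day 3 and 17.7 and 17.7 at day 7 (log2 fold change 1.08, SE 0.22, adjusted p = 0.041). Cdk1 (chr10:69335146-69352938), the kinase that drives mitosis, had 15.4 and 8.10 CPM in vehicle, 37.3 and 20.5 at day 3 and 10.9 and 6.57 at day 7 (log2 fold change 1.34, SE 0.27, adjusted p = 0.041). In each gene the 2 day 3 libraries were the highest of the 6, as for 11.6% of all genes tested. Pclaf, which binds the replication clamp, and Nusap1, a mitotic spindle protein, rose by log2 fold changes of 1.78 and 1.54. All 24 cell cycle genes tested had positive signs, 3 of them called, with a median of 0.82 against -0.00832 over all genes. Their sum was higher at day 3 in the other gates too. It was 1344.5 and 912.94 CPM in vehicle and 1980.3 and 1668.9 at day 3 in Madcam1-positive cells. In Marco- or Ptx3-positive cells it was 1049.9 and 720.6 in vehicle and 2985.5 and 1220.2 at day 3. Immediate-early and dissociation-response genes had negative signs in 21 of 26, with none called (median -0.37), and whether they bear on the other day 3 values was not tested.

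The share of ceiling cells with a Mki67 or Top2a UMI was 8.85 and 5.23% in vehicle, 12.7 and 16.4% at day 3 and 5.86 and 9.67% at day 7. Thinned to 1000 UMIs per cell it was 3.27 and 1.31%, 5.37 and 5.34%, and 1.74 and 2.23%. The B cells, taken by a Cd79a UMI, are no clean measure of background, since some divide in a lymph node and some may be other cells. Of them 15.8 and 5.30% had such a UMI in vehicle, 7.78 and 20.1% at day 3 and 3.14 and 12.7% at day 7. Thinned, these were 6.20 and 1.45%, 1.97 and 11.1%, and 1.48 and 4.83%. A B cell had a median of 2894 to 3835 UMIs, fewer than a ceiling cell. Thinned, ceiling cells were below B cells in 4 of 6 libraries, so no change in the share of dividing cells is read from these values. Free RNA held 74.2 and 16.3 CPM in vehicle, 116 and 251 at day 3 and 17.8 and 53.6 at day 7 of Top2a, also highest in the day 3 libraries, and its part in the rise was not tested.

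The promoters of the 3 called genes are shown because the genes moved together and all 3 carry the same pair of short motifs. Each line gives the 150 bases before the RefSeq start (GRCm38.p6), 5′ to 3′ along the gene. Capitals mark CCAAT, the box bound by the factor NF-Y, and TTTGAA, the core of the cell cycle homology region through which many such genes are silenced in resting cells, on either strand (ATTGG and TTCAAA).
Top2a (chr11:99024190-99024339, minus strand): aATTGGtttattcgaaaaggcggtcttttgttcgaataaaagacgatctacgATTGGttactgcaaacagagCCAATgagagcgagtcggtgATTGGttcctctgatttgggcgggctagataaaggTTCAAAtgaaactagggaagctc
Mki67 (chr7:135716380-135716529, minus strand): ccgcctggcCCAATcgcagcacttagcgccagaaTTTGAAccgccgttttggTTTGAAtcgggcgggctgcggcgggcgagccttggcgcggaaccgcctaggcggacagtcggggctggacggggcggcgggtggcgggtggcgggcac
Cdk1 (chr10:69352913-69353062, minus strand): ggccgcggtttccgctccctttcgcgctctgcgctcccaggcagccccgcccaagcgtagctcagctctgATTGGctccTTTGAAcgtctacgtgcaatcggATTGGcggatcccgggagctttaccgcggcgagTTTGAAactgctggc

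In the 250 bases before the start, CCAAT was found in 18 of the 20 cell cycle genes with an entry (90.0%) and in 34.5% of all 27025 promoters. TTTGAA was found in 7 of 20 and in 16.3% of all. Both occurred in 7 of 20 and in 5.73% of all. A match of letters is a description and shows no binding.

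Other genes called higher at day 3 shared no list. Of 23 NF-kB and acute inflammation genes tested 1, Serpina3n, was called higher, where 0.281% of all genes were, and none lower (median -0.20), and of 18 matrix genes none was called (median -0.06). Serpina3n (chr12:104406729-104414329, GRCm38), a secreted protease inhibitor of the acute phase, had 18.6 and 46.2 CPM in vehicle, 158 and 114 at day 3 and 28.98 and 27.4 at day 7 (log2 fold change 2.19, SE 0.31, adjusted p = 0.012). Both day 3 libraries were above every other, as for 11.6% of all genes tested. Fst, follistatin, which binds activin, had 9.72 and 13.8 CPM in vehicle, 36.2 and 41.9 at day 3 and 5.32 and 12.9 at day 7 (log2 fold change 1.79, SE 0.28, adjusted p = 0.014). Tbxa2r, the thromboxane receptor, had 21.6 and 31.6 CPM in vehicle, 71.9 and 79.2 at day 3 and 31.04 and 23.3 at day 7. Idi1 of sterol synthesis (1.87), Serpinb1a (1.52), Hist1h2ae (2.14) and Itga2b (1.65), the integrin alpha IIb chain, were called as well. Itga2b and Serpina3n were far higher in Madcam1-positive cells, at 255 to 465 and 416 to 578 CPM. Cryab, a small heat shock protein, was high in 1 library only. It had 16.2 and 23.5 CPM in vehicle, 471 and 35.03 at day 3 and 10.9 and 16.5 at day 7, and the day 3 Cre-negative value had a counting interval of 439.9 to 505 CPM against 27.6 to 43.8 for its Cre-positive partner. Without the Cre-negative library the day 3 difference was 0.66 (adjusted p = 0.46).

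Among the genes that fell, Ltb, the membrane subunit of lymphotoxin, had 153 and 156 CPM in vehicle, 41.3 and 55.5 at day 3 and 154 and 168 at day 7 (log2 fold change -1.62, SE 0.21, adjusted p = 0.01), and Btnl9, a butyrophilin-like gene and 1 of the 5 label genes, had 129 and 185 CPM in vehicle, 71.9 and 72.3 at day 3 and 163 and 162 at day 7 (log2 fold change -1.06, SE 0.21, adjusted p = 0.039). The 2 day 3 libraries were the lowest in both, as for 17.1% of all genes tested. Dock10, a guanine nucleotide exchange factor, had 214 and 220.4 CPM in vehicle, 88.8 and 81.4 at day 3 and 211 and 298 at day 7. Il1rapl1 (-1.68), Itih5 (-1.79), Neto2 (-1.75), Pld5 (-1.46), Sik1 (-1.43), Cd247 (-1.23) and Zc3h6 (-1.19) were also called. Camk1d, a calmodulin-dependent kinase, fell from 764 and 839.7 to 391 and 316 CPM, but free RNA held 5648 to 11881 CPM of it and was lowest at day 3 too. The Y-linked gene Uty, named after its values were seen, was called lower at day 3 (-1.25) with 54.5 and 115 CPM in vehicle, 22.6 and 44.6 at day 3 and 29.9 and 31.95 at day 7. The share of ceiling cells with a Y-linked UMI, Uty included, was 40.0 and 82.7%, 20.5 and 44.1%, and 24.5 and 22.7% in the same order. For this gene the sex mix of the libraries and day 3 cannot be told apart.

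The day 3 calls depended on single libraries, vehicle ones included for some genes, and on depth. Some of the genes called higher had more CPM in free RNA than in ceiling cells, averaged over libraries. The part of free RNA in their calls was not tested. A repeat without 1 library leaves 1 residual degree of freedom in place of 2, and the part of this in the lost calls was not tested. Without the Cre-negative day 3 library 0 genes were called, and without the Cre-positive one 1 was. Without any 1 of the other 4 libraries 73 to 118 genes were called higher and 54 to 172 lower. Without the 10% of cells with most UMIs 4 were called higher and 3 lower, and after thinning none. Without the Cre-negative or the Cre-positive day 3 library Top2a had a log2 fold change of 1.08 and 1.15 and Serpina3n one of 1.72 and 2.68, neither called (adjusted p = 0.45 and 0.55 for both). Mki67 and Cdk1 lost their calls there too (adjusted p = 0.45 and 0.57 for both). Cdk1 was also not called without the Vehicle Cre-negative library (1.42, adjusted p = 0.061) or without the Vehicle Cre-positive one (1.29, adjusted p = 0.053). Without the latter Mki67 was not called either (1.06, adjusted p = 0.058). Serpina3n was at 1.45 without the Vehicle Cre-negative library and 3.04 without the Cre-positive one.

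**Figure D4:**
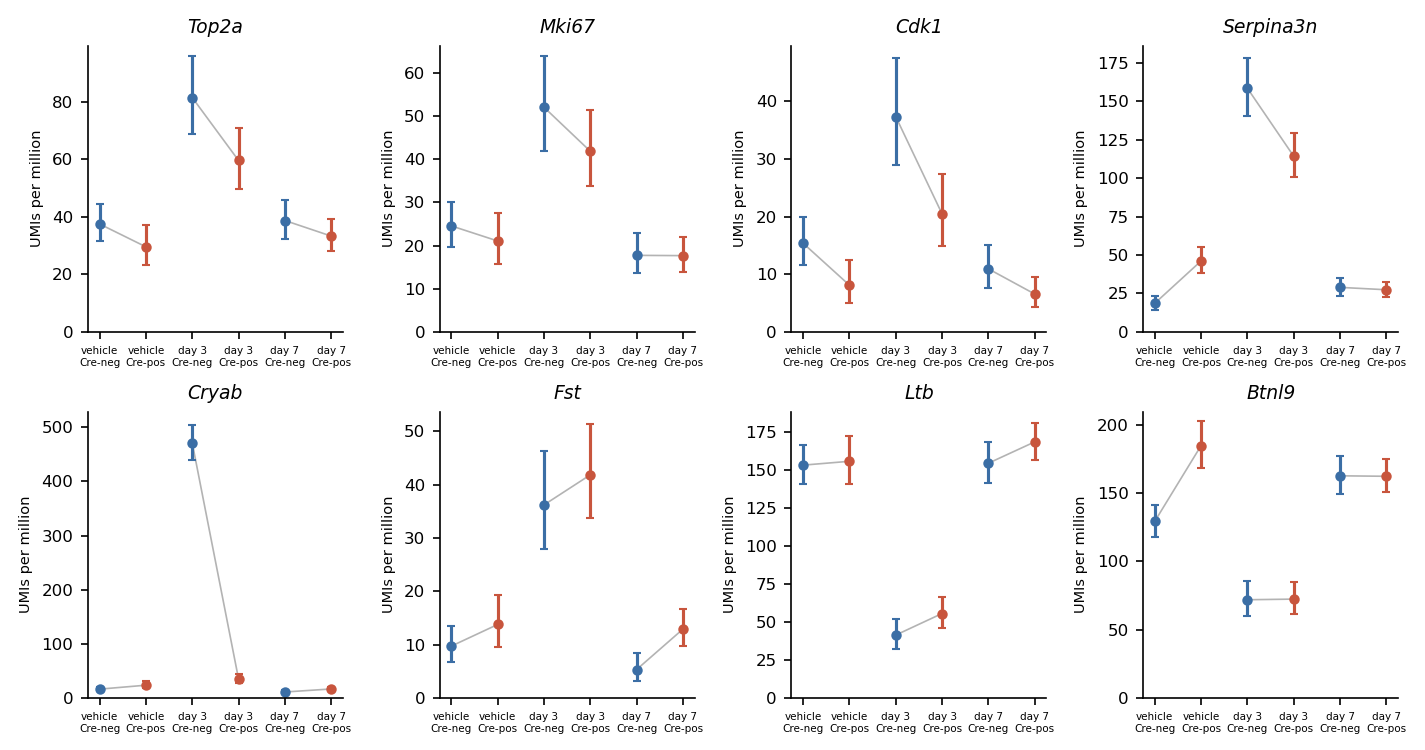
UMIs per 1000000 of ceiling cells for 8 genes called at day 3, 1 point per library with exact 95% Poisson counting intervals; blue is Cre-negative, red Cre-positive and grey lines join libraries of a treatment. The day 3 pair stands above the other 4 points for Top2a, Mki67, Cdk1, Serpina3n and Fst and below them for Ltb and Btnl9, and Cryab is high in 1 library.

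Whether day 3 acted differently on ceiling cells and on other lymphatic cells was tested with an interaction term, and 4 of 11756 genes (0.034%) were called, 2 (0.017%) with the larger log2 fold change in ceiling cells and 2 (0.017%) with the smaller. Serpina3n was at 224 and 285 CPM in vehicle, 295 and 237 at day 3 and 330.3 and 210.3 at day 7 in the other lymphatic cells, which showed no shift like that of ceiling cells (difference of log2 fold changes 2.15, adjusted p = 0.016). Lcn2, the iron-scavenging acute-phase protein lipocalin 2, went the other way. It had 36.4 and 25.1 CPM in vehicle, 22.6 and 35.03 at day 3 and 46.4 and 17.00 at day 7 in ceiling cells and 47.7 and 41.01 CPM in vehicle, 192 and 264 at day 3 and 53.2 and 55.2 at day 7 in the others (difference -2.33, adjusted p = 0.031). In Madcam1-positive cells it reached 397 and 788 CPM at day 3. Cmah, which makes a hydroxylated sialic acid, had 469.5 and 732 CPM in vehicle, 1849 and 1130.2 at day 3 and 580.1 and 685 at day 7 in ceiling cells and 493 and 733 CPM in vehicle, 811 and 417 at day 3 and 696 and 542 at day 7 in the others. When the other cells were restricted to the Madcam1-positive and the Marco- or Ptx3-positive ones, none of the 4 was called, and the differences were 1.96 for Serpina3n and -2.77 for Lcn2 (adjusted p = 0.21 for both) and 1.71 for Cmah (adjusted p = 0.13). Over 16 alternatives they ran from 1.72 to 2.63 for Serpina3n, 1.15 to 1.71 for Cmah and -2.92 to -1.80 for Lcn2, and the call held in 12, 9 and 8 of the 16. Without either day 3 library 1 gene was called, without the day 7 Cre-negative library 44 higher and 58 lower, and without the Cre-positive one 38 and 44. Without the Vehicle Cre-negative library it was 2 higher and 4 lower, and without the Cre-positive one 7 and 1.

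By day 7 no gene was called against vehicle by edgeR (0 of 11401, 0.0%) or DESeq2, and 206 had an unadjusted p below 0.05. Day 3 and day 7 share the vehicle libraries. Without 1 vehicle or day 7 library 12 to 18 genes were called higher and 8 to 49 lower, the most lower ones without the day 7 Cre-negative library. The lowest p values among genes over 20 CPM belonged to Plac8, with 40.2 and 46.2 CPM in vehicle, 66.2 and 64.2 at day 3 and 18.3 and 17.2 at day 7 (log2 fold change -1.30, adjusted p = 0.12), Dach1 (-1.26), Slit3 (-1.49) and Ubd (1.67). Ubd, an interferon-inducible ubiquitin-like gene, had 31.05 and 28.8 CPM in vehicle, 112 and 27.3 at day 3 and 192 and 44.6 at day 7, highest in the Cre-negative libraries of day 3 and day 7, and free RNA held 99.00 to 911 CPM. The 24 cell cycle genes had negative signs in 18 (median -0.24) and immediate-early genes in 25 of 26 (median -0.26), with none called. Glycam1, the venule mucin, was at 112 and 329 CPM in vehicle, 564 and 94.6 at day 3 and 4290.3 and 182 at day 7 in ceiling cells, high in the day 7 Cre-negative library alone, where free RNA held 16480.0 CPM.

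**Figure D5:**
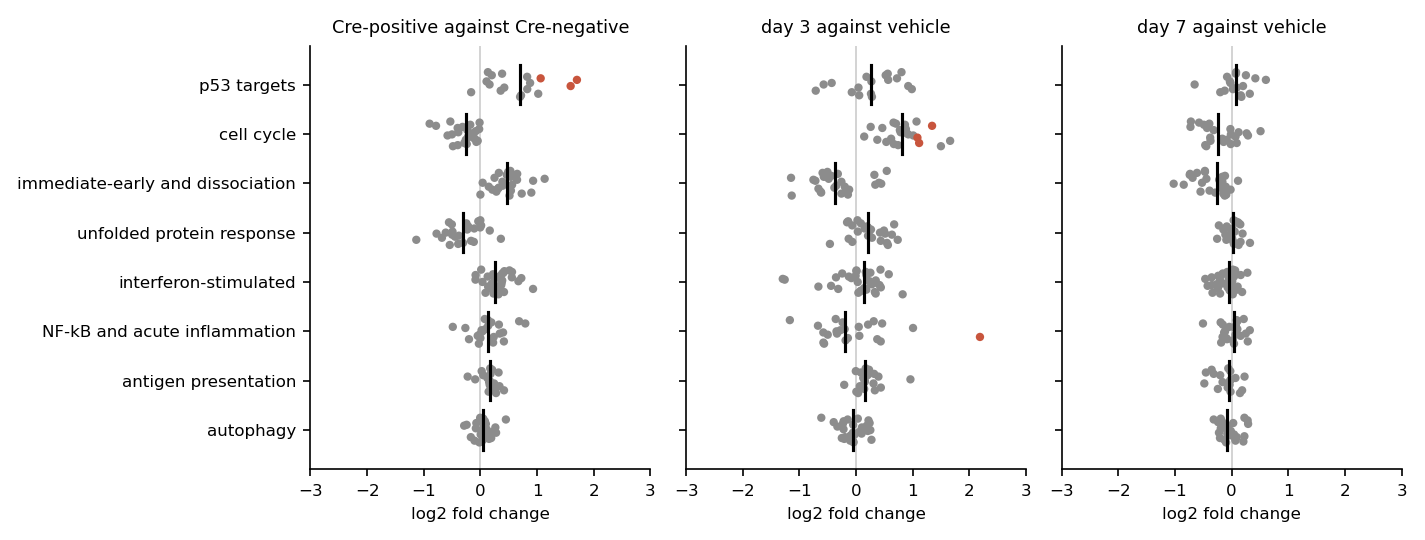
Log2 fold changes of list members in ceiling cells, 1 point per gene, with the list median as a black bar and genes called by edgeR in red. P53 targets sit right of 0 between genotypes (median 0.70) and cell cycle genes right of 0 at day 3 (median 0.82), while the day 7 panel has no red point.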

How the data were processed

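The deposited files used were UMI count matrices of 12 libraries, of which the 6 endothelial ones entered every comparison, made by the authors with Cell Ranger 7.0.1 on mm10 per the submitters' processing notes, while the file headers name Cell Ranger 4. They held unfiltered barcodes and 32285 gene identifiers, of which 99.85% matched GENCODE M21 (GRCm38). The mRFP feature, listed in some libraries only, was left out. In the Cre-positive endothelial libraries it had 364 UMIs in vehicle, 930 at day 3 and 342 at day 7. In the day 7 Cre-negative one, where it was also listed, it had 0. Cells, lymphatic cells and ceiling cells were taken as stated in the report. Madcam1-positive cells were lymphatic cells with at least 1 UMI of Madcam1 and none of Ackr4, Marco or Ptx3. Marco- or Ptx3-positive cells had at least 1 UMI of Marco or Ptx3 and none of Ackr4 or Madcam1, with 28 to 89 cells per library. Lymphatic cells with UMIs for several of these gates, 4.54 to 8.97% by library, entered none of them. The other lymphatic cells were all those with no Ackr4 UMI. No doublet caller was run, the gate removed cells with Ptprc, Cd79a or Cd3e, and an alternative left out the 10% of cells with most UMIs. Free RNA was summed over barcodes of 10 to 100 UMIs.

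UMI counts were summed per library and gate and tested with edgeR 4.0.16 (quasi-likelihood F test, TMM scaling, filterByExpr, R 4.3.3) and Benjamini-Hochberg adjustment over all genes tested, with calls below 0.05. Genotype and oxazolone were terms of 1 additive model over 6 libraries, the gates were compared with library as a term, and differences between ceiling and other lymphatic cells were interaction terms. DESeq2 1.42.0 was an alternative. Scripts were tested on simulated data. Shares used exact binomial intervals and an exact permutation test (scipy 1.17.1).

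Named genes were up to 10 per direction with the largest change among those called, at a mean of at least 20 CPM and with 1 direction in every library or pair, leaving out gate, mitochondrial, ribosomal, haemoglobin, immunoglobulin, T cell receptor, sex-check and unnamed genes. With under 5 called, the 10 lowest p-values were given. Some results for single genes are not reported here. The members and gene lists were chosen with earlier results of these data known.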

Additional observations from a re-analysis of the deposited data

Results flagged for a closer look

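The oxazolone effect at day 3 differed between ceiling cells and other lymphatic cells, by edgeR's interaction term with Benjamini-Hochberg adjustment, in Serpina3n, Cmah and Lcn2. Each value is the log2 fold change in ceiling cells minus that in the others. Serpina3n had 2.15 and Cmah 1.39, the larger log2 fold change being that of ceiling cells. Lcn2 had -2.33. The Lcn2 difference came with 192 and 264 CPM in the other lymphatic cells at day 3. The calls depended on single libraries and settings: of 16 alternatives the call held in 12 for Serpina3n, 9 for Cmah and 8 for Lcn2. Lcn2 was not called without the Vehicle Cre-negative (adjusted p = 0.099), the Vehicle Cre-positive (0.12), the day 3 Cre-negative (0.99) or the day 3 Cre-positive library (0.18). Cmah was not called without the Vehicle Cre-positive (adjusted p = 0.072), the day 3 Cre-negative (0.99) or the day 3 Cre-positive library (0.32). Serpina3n was not called without the Vehicle Cre-negative (adjusted p = 0.058) or the day 3 Cre-negative library (0.30).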

How the results depend on the processing

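Log2 fold changes of named genes were recomputed under each alternative, and their direction and side of the threshold held in 620 of 620 values against the Madcam1-positive gate and 606 of 608 against the Marco- or Ptx3-positive gate. Of the values between genotypes 111 held, 27 lost the call and 4 gained one. At day 3, 269 held and 170 lost the call. At day 7, 117 held and 23 gained a call, and of the day 3 differences from other lymphatic cells 29 held and 19 lost the call. Directions reversed for Ehd4 (-0.0051 to 0.2037 without 1 library, negative without the Vehicle Cre-positive one) and Emp2 (-0.20 without the 10% of cells with most UMIs) against the Marco- or Ptx3-positive gate, and at day 7 for Nxph1 (-0.30 without the 10% of cells with most UMIs). The share of ceiling cells by genotype turned to 0.444 points with at least 2 UMIs of Prox1 or Mmrn1.

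Thinning to 1000 UMIs left 660 genes higher and 663 lower against the Madcam1-positive gate and 374 and 373 against the Marco- or Ptx3-positive gate, and 0 between genotypes, 0 and 0 at day 3, and 0 and 0 for the day 3 difference from other lymphatic cells. Without genes higher in free RNA, 1244 were lower against the Madcam1-positive gate and 858 against the Marco- or Ptx3-positive gate. At day 3, 16 of the 32 genes called higher then remained. In cells with a Y-linked UMI, chosen after seeing the data, 1316 were higher against the Madcam1-positive gate, 943 lower against the Marco- or Ptx3-positive gate, 2 higher between genotypes, 13 higher and 10 lower at day 3 and 1 lower at day 7. With no filter on low counts the counts higher and lower were 48 and 16 between genotypes, 132 and 135 at day 3, 15 and 18 at day 7, and, for the differences from other lymphatic cells, 11 and 24 by genotype, 37 and 51 at day 3 and 20 and 8 at day 7.

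With at least 2 Ackr4 UMIs, 3 genes were higher between genotypes, 14 were higher and 13 lower at day 3, and 1 was lower in the day 3 difference. With at least 2 UMIs of Prox1 or Mmrn1, 1 was lower between genotypes and 1 higher at day 7. With mitochondrial genes at most 5%, 20 were higher at day 3, 1 higher at day 7 and 2 higher in the day 7 difference. Without the 10% of cells with most UMIs, 4 were higher and 3 lower at day 3 and 0 lower in the day 3 difference. DESeq2 called 16 higher at day 3 and 1 lower in the day 3 difference. With the other cells restricted by Madcam1, Marco or Ptx3, chosen after seeing the data, the day 3 difference had 0 and 0. Between genotypes, leaving out both vehicle libraries gave 49 higher and 20 lower, both day 3 libraries 0 higher, and both day 7 libraries 69 and 20. Without both day 7 libraries day 3 gave 117 and 92 and its difference 41 and 53. The genotype difference gave 1 and 2 without both vehicle libraries and 31 and 8 without both day 7 libraries.

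Leaving out 1 library at a time gave 1842 to 2054 higher and 2147 to 2292 lower against the Madcam1-positive gate, 1052 to 1341 and 1195 to 1394 against the Marco- or Ptx3-positive gate, 0 to 74 and 0 to 21 between genotypes, 0 to 118 and 0 to 172 at day 3 and 0 to 18 and 0 to 49 at day 7. The differences from other lymphatic cells gave 0 to 45 and 0 to 13 by genotype, 1 to 44 and 0 to 58 at day 3, and 0 to 48 and 0 to 46 at day 7. The cause of these shifts was not tested. With 1 library per combination and 2 residual degrees of freedom, a missed call does not show that a gene did not differ. Genes near 1 CPM rest on a few UMIs per library. Gates of the same library were matched by the library term, and genotypes by the treatment term. With 1 library per combination no closer matching of samples was possible.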

Other observations

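Of 13 lipid uptake genes tested, 8 were called higher and 2 lower than in Madcam1-positive cells (median log2 fold change 0.70), where 21.4% of all genes were higher and 23% lower. Against Marco- or Ptx3-positive cells 3 were higher and 3 lower (median 0.02), where 13.4 and 14.1% of all genes were. Fabp4, a fatty acid carrier, was at 1691 to 2397 CPM in ceiling cells, 169 to 1080.0 in Madcam1-positive and 597 to 1724 in Marco- or Ptx3-positive cells, the last overlapping with the ceiling. Pparg, the lipid-sensing nuclear receptor, was at 120.1 to 253, 52.9 to 66.8 and 35.6 to 132 CPM in the same order, with the same overlap. On the lower side, Vldlr, a receptor for triglyceride-rich particles, was at 0.566 to 12.7 CPM in ceiling cells against 28.99 to 43.3 in Madcam1-positive cells.

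Adhesion and immune regulation genes divided as well, 7 called higher and 9 lower of 17 against the Madcam1-positive gate, beside 21.4 and 23% of all genes. Il7, a lymphocyte survival cytokine, was at 58.9 to 83.5 CPM in ceiling cells against 18.2 to 32.4, and Tnfrsf11a, the receptor RANK, at 175 to 338 against 82.5 to 109. On the lower side, the alarmin gene Il33 was at 27.8 to 87.5 against 392 to 559.6 CPM, Csf1, the macrophage growth factor, at 259 to 365 against 602 to 774, and Cd274, the checkpoint ligand PD-L1, at 18.8 to 34.5 against 62.9 to 135. Of 10 collecting and valve lymphatic markers tested 5 were higher and 3 lower (median 0.61), and Nfatc1, among the higher and picked after its values were seen, was at 145 to 215 against 10.2 to 26.7 CPM. All genes given with both levels here were called in that comparison.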
